A study of Homo sapiens with 121 samples.

Results

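The cells described here are the gene-poor single cells with long or short telomeres among 121 cells of the human embryonic stem cell (hESC) line WA26. They were selected on the number of detected genes, a gene being detected above 1 TPM (a transcript abundance scaled for length and to the same sum in each cell): every cell with 8000 or fewer detected genes was taken, and its telomere length group came from its label. This gave 42 cells of the 121, namely 30 of the 81 cells labelled Long and 12 of the 15 labelled Short. A further 11 of the 25 Medium cells fell under the same border and are used for reference. Among the gene-rich cells above the border were 51 Long, 14 Medium and only 3 Short cells. Just inside the border lay a Long cell with 7686 and a Short cell with 7638 detected genes, and just outside it a Long cell with 8064 and a Short cell with 8210. Since the number of detected genes chose the cells, its values are given as a description.

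All cells shared one line, one medium (E8, feeder-free on Matrigel) and no treatment, and no culture, passage or plate was named for any of them. A group is therefore a set of cells from what may be a single culture. Each group counts as 1 sample, no test was made, and the SD given is the spread across cells. Poly(A) RNA of each lysed cell was caught on beads and turned into cDNA following Smart-seq2, while the DNA left over went into a qPCR of telomere repeats relative to Alu repeats, which set the Long, Medium and Short groups. A single low value in such data can mean little RNA, poor capture or shallow sequencing, and TPM does not tell these apart.

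Telomeres are the repeat-capped ends of chromosomes. The shelterin complex binds and protects them, and telomerase, which is active in hESCs, extends them. hESCs are pluripotent cells that cycle fast, rely strongly on glycolysis, and keep a network of transcription factors around POU5F1, SOX2 and NANOG. Alu elements are short repeats scattered over the human genome, which also occur in introns, untranslated ends and long non-coding RNAs.

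The hESC markers were present in both groups. POU5F1, L1TD1 and LIN28A were detected in all 30 Long and all 12 Short cells. DNMT3B was detected in 29 of 30 and 10 of 12, TDGF1 in 30 of 30 and 10 of 12, NANOG in 29 of 30 and 8 of 12, SOX2 in 27 of 30 and 9 of 12, and SALL4 in 19 of 30 and 4 of 12. Of 60 markers of other lineages, 28 were detected in none of the 42 cells and 4 in at least 21 of them. These 4 were THY1 (26 of 30 Long and 10 of 12 Short cells), TUBB3 (24 and 9), NES (18 and 7) and TFAP2C (17 and 4). GBX2 was detected in 15 Long and 3 Short cells, OTX2 in 14 and 2, and the mesoderm gene MIXL1 in 7 and 5. Of 12 endoderm markers only APOA2 passed the mean level used below, of 14 mesoderm markers none, and of 10 trophoblast markers only TFAP2C. Of 14 ectoderm and neural markers 4 passed it (OTX2, TUBB3, GBX2 and NES), and of 10 fibroblast markers 3 did (VIM, COL1A2 and THY1). SOX17, T, EOMES and COL3A1 were at 0 in every one of the 42 cells.

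The Short cells were few and unlike each other. Long cells had 4002 to 7686 detected genes (median 5889) and Medium cells 4189 to 7200 (median 5773). Short cells had 2030, 2577, 3187, 3481, 5212, 5382, 5392, 5620, 6046, 6222, 6407 and 7638. The 4 lowest of these, Short 15, Short 13, Short 9 and Short 14, lay below every Long and Medium cell at this limit of 1 TPM. By genes above 0, Long 46 (4142) lay below all 4 of them. By genes above 10 TPM, Short 9 (2480) lay above Long 4 (2058) and Long 69 (2390). Over log2(TPM + 1) of all 25610 genes, the median Pearson correlation between cells was 0.661 for pairs of Long cells, 0.557 for pairs of Short cells and 0.571 for a Long with a Short cell. Genes are not independent replicates, so these coefficients are descriptions. Short 6 stood apart from all others, with a median correlation of 0.318 with the Long cells, whereas Short 2, Short 4, Short 5, Short 9 and Short 11 each had a Long cell as their most similar cell and had median correlations with the Long cells of 0.614 to 0.712. No pair of cells held identical values. Cells also differed in how many genes lay between 0 and 1 TPM. Some had almost none, with 4142 genes above 1 TPM and 4142 above 0 in Long 46. The same held for Short 6 (6046 and 6074), Short 8 (5620 and 5691), Short 12 (6407 and 6437) and Short 5 (7638 and 7676). Others had many, such as Long 5 (4002 and 6494) and Short 15 (2030 and 4492). Whether depth or a batch of libraries lay behind this was not tested.

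To set cells of like gene number side by side, each Short cell was paired with a different Long cell so that the summed difference in detected genes was smallest. For 8 Short cells the partner lay within 17 to 177 genes. The 4 Short cells under 4000 detected genes had no Long cell as poor as themselves, and their partners had 577 to 2112 more genes. Genes between 0 and 1 TPM were not matched. Long 46, which had none, was the partner of Short 15, which had many. The 12 matched Long cells are called matched cells below. They are part of the 30, and both comparisons use the same 12 Short cells, so their values are given side by side and do not check each other.

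**Figure D1:**
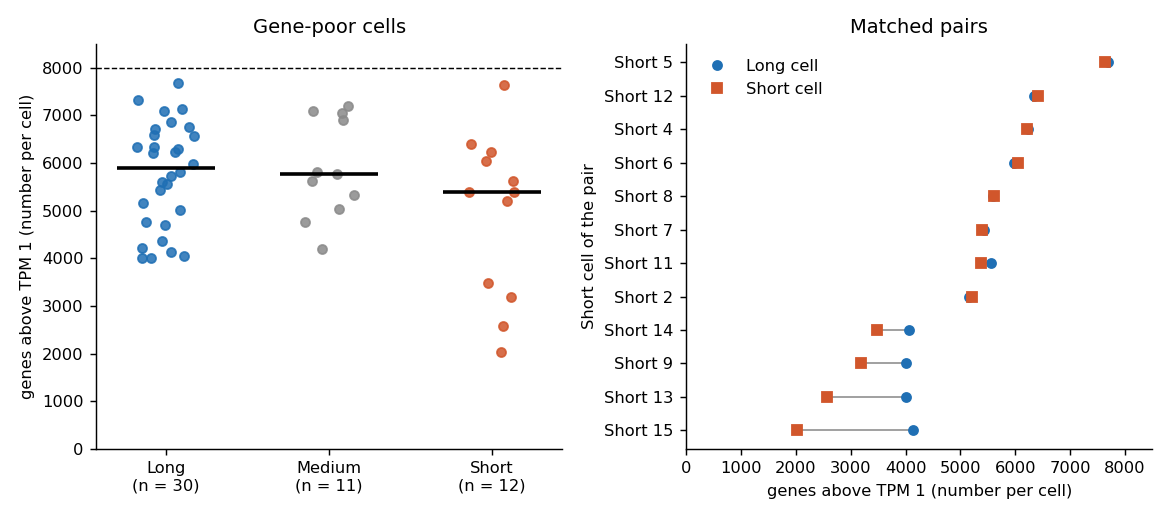
Left, genes above 1 TPM in each gene-poor cell (points) by telomere length group, with the median as a bar and the border of 8000 as a dashed line. Right, the 12 matched pairs, each a Long cell (circle) and a Short cell (square) joined by a line. The 4 Short cells with 2030 to 3481 detected genes lie below every Long cell, and their partners do not reach down to them.

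Most of the genes tested were higher in long telomere cells. Across 6224 genes with a mean of at least 10 TPM over the 42 cells, the difference of mean log2(TPM + 1), Long minus Short, had a median of 0.96, with quartiles of 0.15 and 1.72. It was above 0 for 4860 genes (78.1%). A difference of 1, which is a 2-fold change of TPM + 1, was reached by 3024 genes higher in Long cells (48.6% of those tested) and by 439 higher in Short cells (7.05%). In matched cells the median was 0.77, and 2663 genes (42.8%) were higher in Long and 593 (9.53%) higher in Short cells.

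The choice of genes bore on these values, since a mean over 30 Long and 12 Short cells favours genes high in Long cells. With the limit set on the mean of both group means, chosen after the values were seen, the median over 6249 genes was 0.82, with 2798 genes higher in Long and 622 higher in Short cells. Over all 17562 genes above 0 in any of the 42 cells the median was 0.16, and 3551 genes (20.2%) were higher in Long and 1016 (5.79%) in Short cells. At a mean of at least 50 TPM the median was 1.35. The difference thus depended on abundance, and the gene lists below were not compared with genes of like abundance.

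Single cells varied more than the groups differed. The difference exceeded the SD of both groups for 319 of the 3024 genes higher in Long and 5 of the 439 higher in Short cells. These were 5.13% and 0.0803% of all 6224 tested genes. In matched cells there were 320 and 11 such genes, or 5.14% and 0.177% of all tested genes. For no gene, which is 0% of those tested, did the values of the 30 Long and 12 Short cells fail to overlap.

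The overall shift depended on how cells were scaled and which genes were read. When cells were scaled by their median ratio over the 637 genes above 0 in all 42 cells, the median fell to 0.49, or 0.30 in matched cells, and the share of Long among all genes past a difference of 1 went from 87.3% to 70.4% (81.8% to 62.7% in matched cells). Counted from the median of 0.96 instead of from 0, 1169 genes lay 1 or more above it and 1317 lay 1 or more below. Without the 4 Short cells under 4000 detected genes the median was 0.71.

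**Figure D2:**
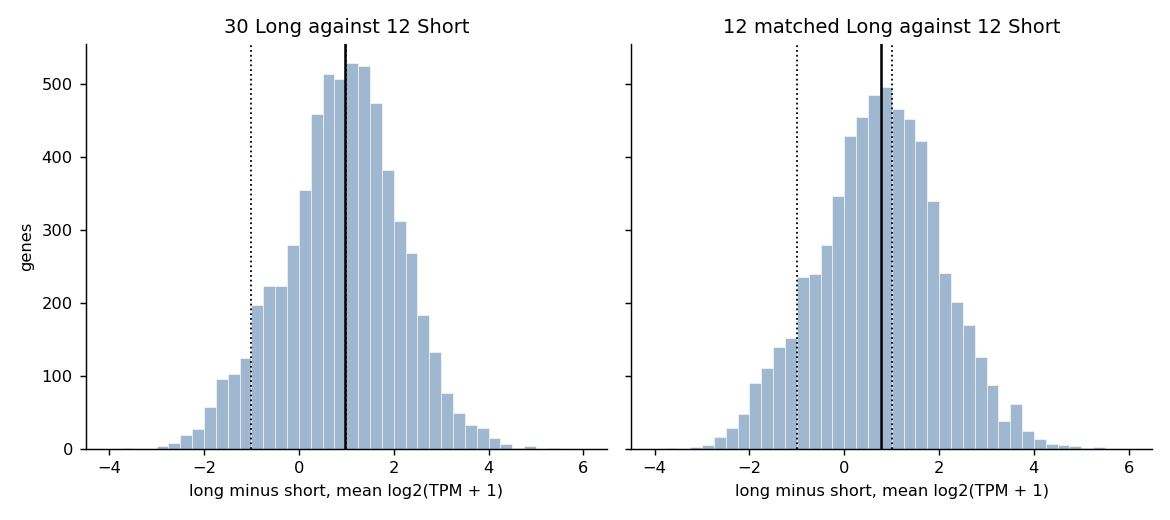
Number of tested genes (vertical axis) by Long minus Short difference of mean log2(TPM + 1) (horizontal axis), for all gene-poor cells (left) and matched cells (right). The solid line marks the median (0.96 and 0.77) and the dotted lines differences of -1 and 1. Both distributions sit to the right of 0 with a thinner tail on the left.

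Medium cells resembled Long cells. Over the same genes the median difference between Medium and Short gene-poor cells was 0.80, and that between Long and Medium was 0.09. These differences share cells with the one above. In the gene-rich cells, which share none, the median of 51 Long minus 3 Short cells was 0.05. Of the 3024 genes higher in Long gene-poor cells, 51.4% had the same sign in gene-rich cells, and of the 439 higher in Short cells 37.1%, beside 49.4% of all tested genes.

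Both detection and level differed across the tested genes, within the filter described above. A gene was detected in a median of 66.7% of Long cells and 50.0% of Short cells, and the share of cells detecting it was higher in Long cells by a median of 11.7 percentage points. Over the 5273 genes detected in 3 or more cells of each group, the level in the cells with the gene was higher in Long cells by a median of 0.48.

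RNA of Short cells was also concentrated in fewer genes. The 50 most abundant genes of a cell summed to a median of 241138 TPM in Long cells (193863 to 322794), 270359 in Medium cells (218971 to 355488) and 364879 in Short cells (200238 to 456964). In 7 of 12 Short cells this sum was above the highest Long cell, while Short 2 and Short 11, with 200238 and 214020, lay below the Long median. How far this contributed to the lower level of other genes was not tested.

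The 12 genes with the largest differences towards Long cells all exceeded the SD of both groups. CCT8, a subunit of the CCT chaperonin that folds actin and tubulin (chr21:30428126-30446118, hg19, minus strand), led them. Its lowest, median and highest log2(TPM + 1) were 4.13, 8.46 and 10.28 in Long cells and 0, 1.95 and 8.75 in Short cells. The groups overlapped in 3 Short cells, and the other 9 lay under the lowest Long cell. The difference was 5.26, with SDs of 1.35 and 3.00, and the Long cell was higher in 92.8% of the 360 pairs of a Long and a Short cell. It was 4.86 in matched cells and 4.16 without the 4 sparsest Short cells, and CCT8 averaged 8.11 in Medium cells.

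MSH6 is part of a dimer that recognises mismatched bases (chr2:47922669-48037202, hg19, plus strand). It ran from 0 over a median of 6.01 to 8.66 in Long cells and from 0 over 1.33 to 4.67 in Short cells. All 12 Short cells lay under the Long median. The difference was 4.29 (SDs 1.70 and 1.53), the Long cell was higher in 95.4% of pairs, and in matched cells the difference was 4.68. The gene was detected in 29 of 30 Long cells (96.7%, exact binomial 95% interval 82.8 to 99.9) and 7 of 12 Short cells (58.3%, 27.7 to 84.8). Intervals of this kind cover counting error only.

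FKBP1A, an immunophilin, was detected in all 30 Long cells. It ran from 6.26 over 8.70 to 10.12 in Long and from 0 over 3.32 to 8.93 in Short cells, a difference of 4.79. For this gene 9 of 12 Short cells lay below every Long cell.

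A further 8 differed by 4.28 to 4.91. They were DPM1, which makes the mannose donor for glycosylation (4.91), COPS5, the catalytic subunit of the COP9 signalosome (4.83), MLF2 (4.75), CHCHD3, which shapes the inner mitochondrial membrane (4.57), PGRMC1, a haem-binding membrane protein (4.40), RCN2 of the endoplasmic reticulum (4.40), POLR1D, a subunit shared by RNA polymerases I and III (4.38), and COX7A2L, which joins respiratory complexes (4.28). CHCHD3 was detected in 28 Long cells and only 3 Short cells. For MLF2 and CHCHD3 all 12 Short cells lay under the Long median, and for POLR1D 11 of 12. In gene-rich cells the differences of the 12 genes ran from -0.35 for CCT8 to 0.55 for MLF2.

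In matched cells the 5 largest differences towards Long were those of VPS72, a histone chaperone subunit (5.37), CHCHD3 (5.35), COPS5 (5.01), GDF3, a TGF-beta ligand of pluripotent cells (4.93), and MIEN1 (4.89). By share of pairs, MSH6, MLF2, ATP6V1G1, MRPL15 and CCT8 came first. The Long cell was higher in 94.4% of pairs for MLF2, in 93.6% for ATP6V1G1, a subunit of the proton pump of lysosomes, and in 93.3% for MRPL15, of the mitochondrial ribosome.

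**Figure D3:**
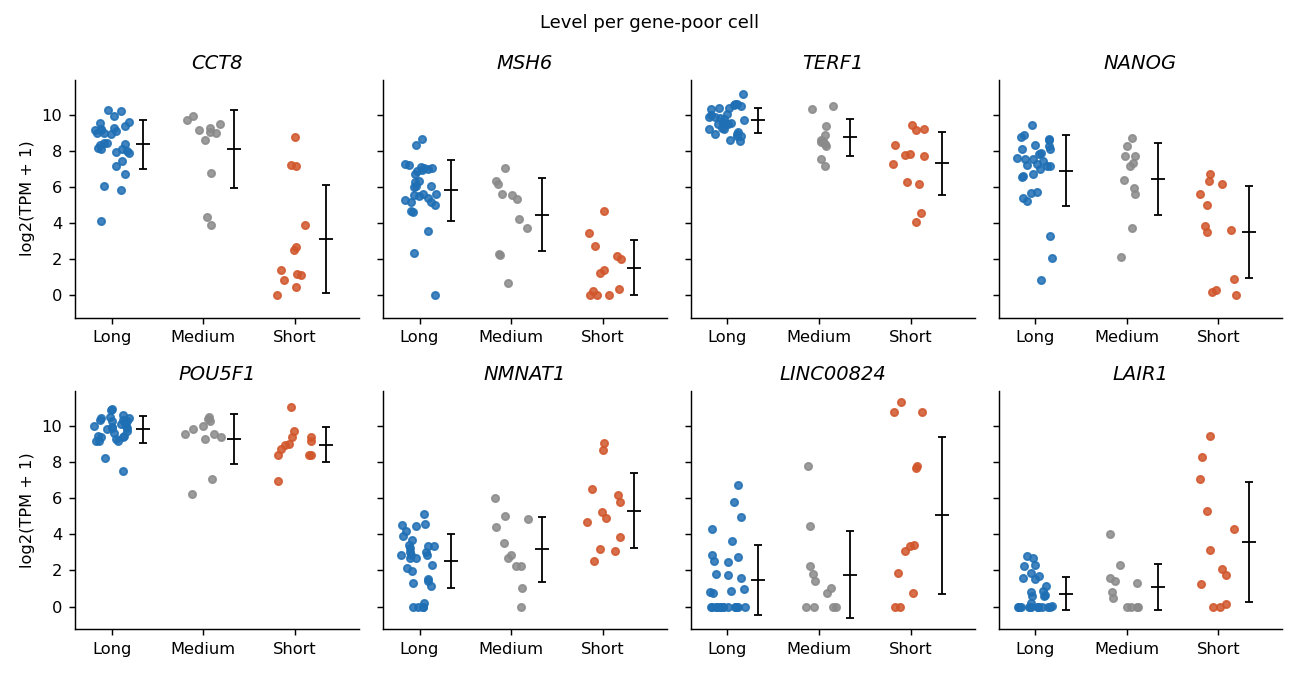
log2(TPM + 1) of 8 genes in each gene-poor cell (points) of the Long (n = 30), Medium (n = 11) and Short (n = 12) groups, with the mean and SD across cells beside them. CCT8, MSH6, TERF1 and NANOG are lower in most Short cells, and POU5F1 differs less. For LINC00824 and LAIR1 5 and 6 Short cells lie above every Long cell.

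Of the shelterin genes, TERF1 differed and the others were hardly measured. TERF1, which binds the double-stranded telomere repeat, was detected in all 42 cells, so its difference was one of level. It ran from 8.52 over 9.63 to 11.15 in Long cells and from 4.08 over 7.74 to 9.43 in Short cells. All 12 Short cells lay under the Long median, and 9 lay under the lowest Long cell. The difference was 2.37 (SDs 0.67 and 1.75), with 2.27 in matched cells, 2.34 without the 4 sparsest Short cells, and 2.07 to 2.56 when each Short cell was left out in turn. Scaling by the median ratio left 1.48. Medium cells averaged 8.74, between both groups, and in gene-rich cells the difference was 1.31.

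In matched cells 2 of the 5 shelterin members that could be tested reached a difference of 1, TERF1 and ACD (1.17). The median of the list was 0.74 there. In all gene-poor cells only TERF1 reached 1, and the list had a median of 0.44. TERF2, which guards telomere ends from fusion, differed by -0.67, TINF2, the hub of the complex, by 0.44, ACD, which recruits telomerase, by 0.86, and TERF2IP by 0.43. These 4 were detected in 7 to 15 Long cells and 3 to 7 Short cells. POT1, which binds the single-stranded overhang, fell under the mean level. It was detected in 7 of 30 Long cells (23.3%, 9.93 to 42.3) and 0 of 12 Short cells, which allows a share of up to 26.5%.

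Of 12 tested genes of telomerase and its assembly 4 (33.3%) were higher in Long cells, with a median of 0.76 that turned to -0.09 under median ratio scaling. The largest differences were those of RUVBL2 (2.07) and RUVBL1 (1.89), a pair of ATPases that help assemble the enzyme.

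Genes of DNA repair and of the cell cycle lay near or above the 48.6% of all tested genes that were higher in Long cells. In mismatch repair 4 of 5 tested genes reached a difference of 1 and the median was 1.42 (0.88 in matched cells, where 2 of 5 did). Beside MSH6, PMS1, a MutL homologue, differed by 1.93, and PMS2 by 0.44. PMS1 was detected in 17 Long and 3 Short cells. MSH3 (0.14, and -0.53 under median ratio scaling) and MLH3 (-0.02) were below the mean level.

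In end joining, XRCC5, a subunit of the Ku dimer that binds broken ends, differed by 1.22 and its partner XRCC6 by 0.99. PRKDC, the kinase they recruit, differed by 1.20. Under median ratio scaling XRCC5 came to 0.33, XRCC6 to 0.10 and PRKDC to 0.49. The median of the list fell from 1.20 to 0.49, the value of all tested genes under that scaling. In homologous recombination 8 of 17 genes (47.1%) were higher in Long and 1 in Short cells, a share near that of all tested genes, with a median of 0.92 that was 0.39 in matched cells and there turned to -0.16 under median ratio scaling. FANCI of the Fanconi pathway differed by 2.68, and RAD50, of the complex that senses breaks, by 2.53. FANCI was detected in 19 Long and 3 Short cells, and RAD50 in 22 and 5. No Short cell reached the Long median of FANCI or RAD50.

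DNA replication genes were higher in Long cells for 26 of 42 (61.9%) and higher in Short cells for 1, with a median of 1.25 in both comparisons. RPA2, which coats single-stranded DNA, differed by 3.06, POLD2 of DNA polymerase delta by 2.73, and PCNA, its clamp, by 2.45. Mitosis genes were higher in Long cells for 26 of 41 (63.4%) and in Short cells for none, with a median of 1.20 (1.28 in matched cells). MAD2L1 of the spindle checkpoint differed by 4.03 and the cyclin CCNB2 by 3.80. Both groups varied widely in mitotic genes. The per-cell mean of that list ran from 1.52 to 6.76 in Long cells and 1.58 to 4.75 in Short cells.

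Pluripotency genes ranged from large differences to differences near 0, and the groups overlapped for all of them. Of 19 tested 10 (52.6%, near the 48.6% of all tested genes) were higher in Long cells and none in Short cells, with a median of 1.21 (0.90 in matched cells). NANOG ran from 0.83 over 7.37 to 9.46 in Long and from 0 over 3.71 to 6.71 in Short cells. All 12 Short cells lay under the Long median, and the difference was 3.40 (SDs 1.97 and 2.57), or 2.91 in matched cells and 2.25 without the 4 sparsest Short cells. TDGF1, a Nodal co-receptor, ran from 7.59 over 9.54 to 10.89 in Long and from 0.68 over 6.49 to 10.36 in Short cells. Its difference was 3.55, and 9 Short cells lay below every Long cell.

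POU5F1, L1TD1 and LIN28A were measured in every cell and lay close together. POU5F1 ran from 7.50 over 9.91 to 10.94 in Long and from 6.98 over 8.96 to 11.06 in Short cells, a difference of 0.85 (SDs 0.73 and 0.97), with 11 of 12 Short cells under the Long median. L1TD1 differed by 0.24 and LIN28A by -0.12. Under median ratio scaling POU5F1 came to -0.04, L1TD1 to -0.65 and LIN28A to -1.0, so the direction of POU5F1 and L1TD1 turned. SOX2 differed by 0.79 and, without the 4 sparsest Short cells, by -0.55. DNMT3B, a DNA methyltransferase, differed by 2.15, ZFP42 by 2.26, MYC by 2.39 and DPPA4 by 1.21. Under median ratio scaling DNMT3B came to 1.31, ZFP42 to 1.43, MYC to 2.15 and DPPA4 to 0.32. MYC was detected in 16 Long and 2 Short cells. UTF1 and FGF5 went the other way, with differences of -1.47 and -1.89, though both were under the mean level. The PluriNet list, as the study lists it, had 158 of 250 tested genes (63.2%) higher in Long and 1 higher in Short cells, with a median of 1.37 (1.31 in matched cells).

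Among the genes of protein turnover and folding the counts were well over the 48.6% of all tested genes. Their medians are to be read beside the 1.35 of genes with a mean of at least 50 TPM as well as beside 0.96. Of 43 proteasome genes 29 (67.4%) were higher in Long cells and none in Short cells, with a median of 1.52 (1.62 in matched cells, where 28 were). Of 14 subunits of the CCT chaperonin and prefoldin 11 were higher in Long and 1 in Short cells, with a median of 1.79 (1.59). Without the 4 sparsest Short cells the median of the CCT and prefoldin list was 0.99 and that of the proteasome 1.35, beside 0.71 for all tested genes. PSMA3, a ring subunit of the proteasome, was detected in all 42 cells. It ran from 7.53 over 10.08 to 11.10 in Long and from 1.26 over 6.73 to 9.76 in Short cells, a difference of 3.70, and 8 Short cells lay below every Long cell. The assembly chaperone PSMG1 differed by 3.66, the lid subunit PSMD6 by 3.65 and the prefoldin subunit VBP1 by 3.61.

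Summed TPM differed less than the mean over genes. The proteasome genes together took a median of 20488 TPM in Long and 17772 TPM in Short cells, where they ran from 1743 to 29007. The per-cell mean of their log2(TPM + 1) was 7.15 ± 0.69 in Long cells (SD, n = 30) and 5.64 ± 1.26 in Short cells (SD, n = 12).

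The lists of energy genes differed in how far they leaned to Long cells. Of 19 glycolysis genes 11 (57.9%) were higher in Long and none in Short cells, with a median of 1.09 (0.89 in matched cells). LDHA, which makes lactate, differed by 3.79, PGAM1 by 2.90, the lactate carrier SLC16A1 by 2.80 and PKM by 2.42. The summed TPM of the list had a median of 11706 in Long and 7065 in Short cells. GAPDH, also of this list and detected in all 42 cells, differed by 0.52, and by -0.37 under median ratio scaling.

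Of 38 genes of respiratory complex I 14 (36.8%) were higher in Long and 1 in Short cells. Their median of 0.52 lay below that of all tested genes, and it turned to -0.17 under median ratio scaling. Without the 4 sparsest Short cells it was 0.72, beside 0.71 for all tested genes. With only the matched pairs that lay within 300 detected genes it was 0.97, beside 0.74. Its place below all tested genes thus depended on the cells taken. NDUFA9 differed by 3.62 and NDUFB5 by 3.47, whereas NDUFA13 differed by -0.79, or by 0.03 without the 4 sparsest Short cells. Of 40 genes of complexes II to V 21 (52.5%) were higher in Long and 1 in Short cells, with a median of 1.03 that was 0.21 under median ratio scaling. SDHC of complex II differed by 3.72, UQCRFS1 of complex III by 3.34 and ATP5A1 of the ATP synthase by 2.97. ATP5I, a small subunit of the same enzyme, differed by -1.05 and ran from 9.22 over 11.18 to 12.24 in Long and from 9.98 over 12.58 to 13.27 in Short cells. The summed TPM of complexes II to V had a median of 42637 in Long and 43141 in Short cells.

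The cytosolic ribosome and its mitochondrial counterpart differed. Of 79 cytosolic ribosomal protein genes 12 (15.2%) were higher in Long and none in Short cells, with a median of 0.51 (0.52 in matched cells) that turned to -0.37 under median ratio scaling. Their summed TPM had a median of 156297 in Long and 164952 in Short cells. RPS15 stood out in the other direction, with 10.31 over 11.61 to 12.31 in Long and 11.14 over 12.71 to 13.55 in Short cells, a difference of -0.92, and 8 Short cells lay above every Long cell. RPL23A (1.34), RPL7 (1.39) and RPS4X (1.96) were among those higher in Long cells. Of 77 mitochondrial ribosomal protein genes 49 (63.6%) were higher in Long and 1 in Short cells, with a median of 1.41 (1.28). MRPL24 was detected in 19 Long cells and 1 Short cell and differed by 3.60.

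Among the remaining lists, 12 of 28 spliceosome genes (42.9%) were higher in Long cells. Their median of 0.82 was 0.01 under median ratio scaling. In matched cells it was 1.19, beside 0.77 for all tested genes, and 16 of the 28 were higher in Long cells. Without the 4 sparsest Short cells it was 1.31, beside 0.71. In all gene-poor cells LSM2 (3.23) and SF3A3 (3.18) had the largest differences. SNRPD2, a core snRNP protein, differed by -0.72. The counts that follow are to be read beside the 48.6% of all tested genes higher in Long and the 7.05% higher in Short cells. Of 25 genes of RNA polymerase I and the nucleolus 13 (52%, near that share) were higher in Long and 1 in Short cells. Their median was 1.07, and 0.56 in matched cells. Of 13 cohesin, condensin and chromatin HMG genes 7 (53.8%, also near it) were higher in Long cells, with a median of 1.03. Of 10 tested p53 targets and apoptosis genes 6 were higher in Long cells, with a median of 1.30. Of 13 stress and immediate early genes 10 were, with 1 higher in Short cells and a median of 1.24. In matched cells, where 42.8% of all tested genes were higher in Long cells, 5 of the 10 and 6 of the 13 were. In all gene-poor cells ASNS, which makes asparagine, differed by 3.20 and HSPA5, the chaperone of the endoplasmic reticulum, by 2.33. The list of nuclear transcripts that resemble mitochondrial RNA had a median of -0.22, with the humanin-like copy MTRNR2L6 at -0.96. Humanin-like copies resemble each other and mitochondrial RNA, so reads may have been shared between them.

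Median ratio scaling lowered the other lists as well, beside 0.49 for all tested genes. The proteasome came to 0.81, the CCT chaperonin and prefoldin to 1.05, the mitochondrial ribosome to 0.79, mismatch repair to 1.24, DNA replication to 0.68, mitosis to 0.83, the pluripotency list to 0.61, PluriNet to 0.76 and glycolysis to 0.60. RNA polymerase I and the nucleolus came to 0.30 and the cohesin, condensin and HMG list to 0.34, under the median of all tested genes.

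**Figure D4:**
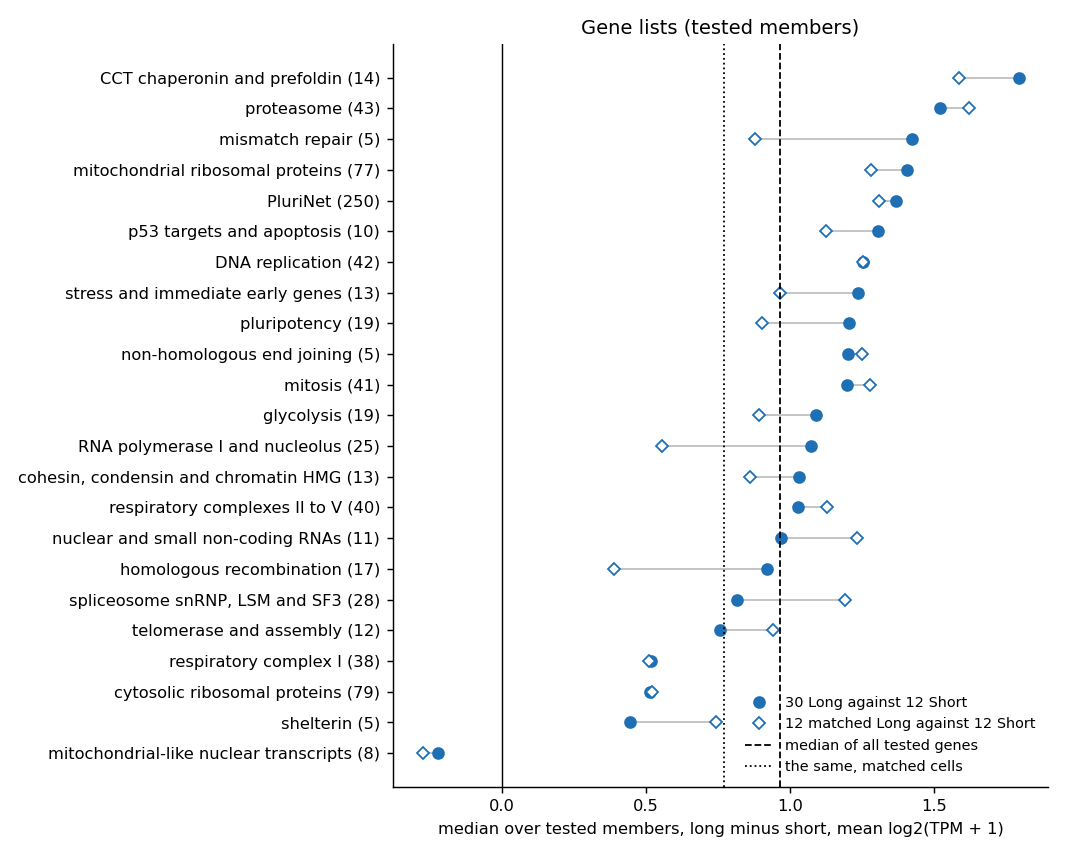
Median Long minus Short difference of mean log2(TPM + 1) over the tested members of each gene list (number in brackets), in all gene-poor cells (filled circles) and matched cells (open diamonds). Dashed and dotted vertical lines mark the median of all tested genes in the same comparisons (0.96 and 0.77). The CCT chaperonin, the proteasome and the mitochondrial ribosome lie to the right. Complex I, the cytosolic ribosome, shelterin and the mitochondrial-like nuclear transcripts lie to the left.

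The 12 genes with the largest differences towards Short cells were a long intergenic RNA (LINC00824), a pair of LOC symbols (LOC101929698, and LOC101929147, which GENCODE names as the antisense RNA WARS2-AS1), 2 microRNA genes (MIR1273A and MIR663A), a pair of read-through transcripts (TNFAIP8L2-SCNM1 and SERF2-C15ORF63), GNRHR2, annotated as a pseudogene, and 4 coding genes (LAIR1, NMNAT1, XKR9 and TMIGD2). LAIR1 and TMIGD2 are receptors of immune cells. Only TNFAIP8L2-SCNM1 and NMNAT1 exceeded the SD of both groups.

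NMNAT1, the nuclear enzyme that makes NAD (chr1:10003486-10045559, hg19, plus strand), was the most even of them. It ran from 0 over 2.85 to 5.15 in Long cells and from 2.53 over 5.07 to 9.04 in Short cells. It was detected in 25 of 30 Long and all 12 Short cells, 11 Short cells lay above the Long median and 6 above the highest Long cell. The difference was -2.78 (SDs 1.50 and 2.08), and the Long cell was higher in 13.3% of pairs. It was -2.84 in matched cells and -2.44 without Short 6, and Medium cells averaged 3.17.

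LINC00824 ran from 0 over 0.76 to 6.75 in Long and from 0 over 3.38 to 11.34 in Short cells, a difference of -3.57 (SDs 1.94 and 4.35). It was uneven among Short cells. It stood at 11.34 in Short 6, 10.77 in Short 12, 10.76 in Short 8, 7.77 in Short 7 and 7.68 in Short 4, all above every Long cell, and at 0 in Short 5 and Short 15. LAIR1 ran from 0 over 0.10 to 2.82 in Long and from 0 over 2.60 to 9.47 in Short cells, a difference of -2.85, and the same 5 Short cells held its 5 highest values. Of the Medium cells Medium 20 was highest in both genes, at 7.77 and 4.05, and it too lay above every Long cell. Without Short 6 the differences of LINC00824 and LAIR1 were -3.00 and -2.31. The other 9 of the 12 differed by -2.50 to -2.86, or by -1.61 to -2.50 with the one Short cell left out that lowered each most.

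RAB12, a small GTPase, was higher in Short cells and was detected in all 42 cells. It ran from 7.43 over 9.30 to 10.78 in Long and from 9.10 over 10.50 to 13.73 in Short cells, a difference of -1.45, and 6 Short cells lay above every Long cell. CLEC4GP1, a pseudogene, differed by -1.47, with 11 of 12 Short cells above the Long median. Under median ratio scaling these were -2.34 and -2.36. In matched cells RIOK1, a kinase of ribosome assembly, came to -3.08, beside -0.94 in all gene-poor cells, so its value rested on which Long cells were taken.

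Classes of gene symbol differed in their share of genes higher in Short cells. It was 43.2% of 118 LOC symbols (51 genes), 41.5% of 65 LINC symbols (27), 34.7% of 98 antisense symbols (34) and 14.0% of 50 microRNA genes (7). It was 12.5% of 16 read-through symbols (2), of which 43.8% (7) were higher in Long cells, and 2.7% of 37 small nucleolar RNA genes (1). Of the 5840 symbols in none of these classes 5.43% were, and these made up 317 of the 439 genes. Short 6 carried part of this. Without it the shares were 25.4% (30 genes), 29.2% (19), 22.4% (22) and 14.0% (7) for the first 4 classes, 12.5% (2) for read-through symbols, 8.11% (3) for small nucleolar RNA genes and 4.47% (261) for the rest. Smart-seq2 cDNA cut by a transposase, as in the TruePrep kit used here, does not mark the strand of the RNA, so reads of an antisense gene and of its partner cannot be told apart.

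A 14-base word of Alu elements, GCCTGTAATCCCAG, or its reverse complement CTGGGATTACAGGC, chosen after the values were seen, was searched in the longest annotated transcript of each gene. Of the 6224 tested genes 6090 had a transcript. The word was in 23.0% of these, in 45.1% of those higher in Short cells (181 of 401), in 18.3% of those higher in Long cells (549 of 3005) and in 25.1% of those past neither limit. In matched cells it was in 42.5% of genes higher in Short and 19.0% of genes higher in Long cells. Without Short 6 it was in 41.9% of 315, and without the 4 sparsest Short cells in 43.6% of 787 genes higher in Short cells. Both settings kept the genes that were chosen on the mean over all 42 cells. A match says only that these letters occur in the transcript.

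The median longest transcript had 2900 bases for genes higher in Short and 3140 bases for genes higher in Long cells. Within the shortest of 4 equal classes of length, from 67 to 1943 bases, 23.9% of the 92 genes with the word were higher in Short cells, against 5.24% of the 1432 without it. Within the longest class, from 4719 bases, it was 9.24% of 617 against 3.09% of 905. Of the 12 genes highest in Short cells, 8 had a transcript to search, and LAIR1, NMNAT1 and TMIGD2 held the word. Of the 12 highest in Long cells, DPM1, COPS5 and RCN2 did.

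Cell by cell, the word genes set some Short cells apart. The mean log2(TPM + 1) of the 1403 genes with the word minus that of the 4687 without it was -0.13 ± 0.17 in Long cells (SD, n = 30), -0.07 ± 0.21 in Medium cells (SD, n = 11) and 0.30 ± 0.57 in Short cells (SD, n = 12). It was above 0 in 5 of 30 Long, 3 of 11 Medium and 6 of 12 Short cells. Its highest value was 0.38 in Long and 0.39 in Medium cells. Above the highest Long cell lay 4 of 12 Short cells and 1 of 11 Medium cells. Short 6 had the highest value, 1.61, followed by Short 12 (0.93), Short 7 (0.67), Short 8 (0.64), Short 4 (0.35) and Short 14 (0.27), while Short 2, Short 5, Short 9, Short 11, Short 13 and Short 15 lay between -0.29 and -0.06. The first 5 of these are the Short cells that were high in LINC00824 and LAIR1. Medium 20, also high in both, had a mean of 3.41 with and 3.02 without the word. Short 6, Short 8 and Short 12 had almost no genes between 0 and 1 TPM, whereas Short 7 and Short 4 had many. Short 5 had almost none either, and was at 0 in LINC00824 and LAIR1. The telomere length groups were themselves set by a qPCR relative to Alu repeats, and the part of any Alu-bearing RNA or DNA in these values was not tested.

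**Figure D5:**
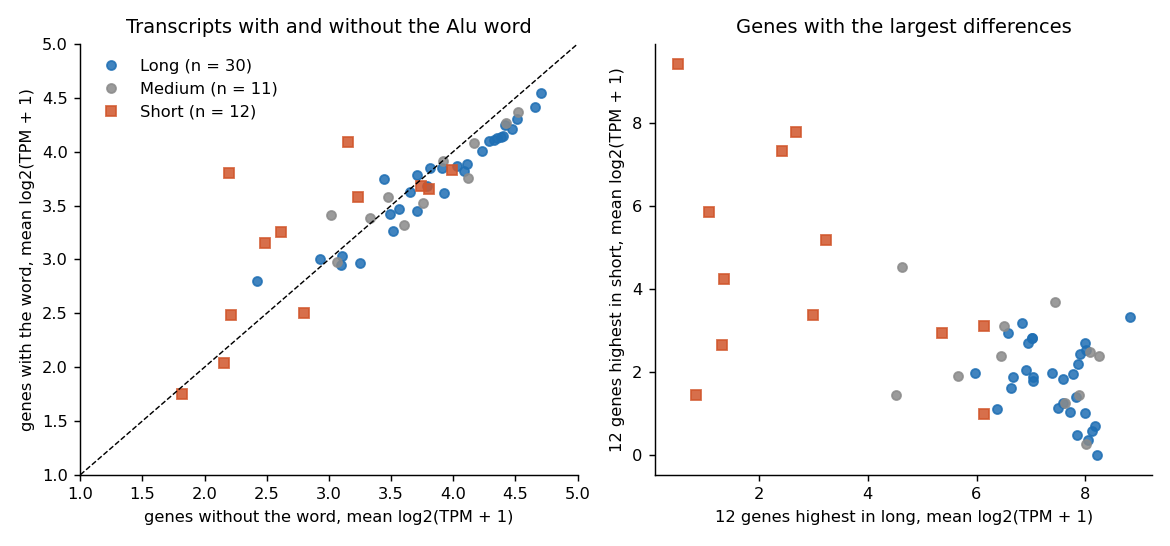
Left, mean log2(TPM + 1) of the genes with the Alu word against that of the genes without it in each gene-poor cell, with equality as a dashed line. Right, mean log2(TPM + 1) of the 12 genes highest in Short cells against that of the 12 genes highest in Long cells. Short 6, at 3.80 with and 2.19 without the word on the left, lies farthest above the line, and on the right Short cells spread from the Long cells towards the upper left.

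The genes chosen at both ends placed the cells on a range, which their choice brings about in part. The mean of the 12 genes highest in Long cells was 5.97 to 8.82 in Long cells, 4.51 to 8.25 in Medium cells and 0.51 to 6.14 in Short cells. Short 11 (6.14), Short 5 (6.13) and Short 2 (5.37) came nearest to the Long cells, and Short 6 (0.51) lay farthest from them.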

How the data were processed

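Single WA26 cells were profiled by Smart-seq2 on poly(A) RNA, with libraries from a TruePrep kit. The authors deposited 1 table of TPM values with a column per cell. The methods name TopHat on hg19, HTSeq with its defaults on RefGene and a size factor function, whereas the submitters' processing notes list TopHat2, RSEM and hg19, so how the TPM were made is not fully settled. The 25610 genes read, sorted up to ZFR, add up to 979828 to 997050 TPM in a cell and carry 2 decimals. Later symbols and 1 incomplete row were not analysed here. The study gives read totals over all cells, but TPM keeps no read number, so the depth of each cell was not used here and no counting error is given for a level.

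Cells with 8000 or fewer genes above 1 TPM were taken and grouped by label. For genes with a mean of at least 10 TPM over the 42 cells, the difference of mean log2(TPM + 1), which understates changes of low genes, was computed with the SD across cells and the share of 360 Long-Short pairs with the Long cell higher. Cells were matched by linear assignment on detected genes. Since no culture is named, no p-value was computed. Detection shares have exact Clopper-Pearson 95% intervals. Members, lists and settings were chosen with earlier results of these data known. Named genes are the 12 largest differences each way, the 5 largest in matched cells and by pairs, up to 4 per list, all of shelterin, mismatch repair and pluripotency, and genes the study names. The Alu word was chosen after values were seen. A few genes that the rule names are not reported here. Positions and transcripts are from GENCODE 44 lifted to GRCh37, with symbols matched through older names and RefSeq gene IDs. Alternatives were a filter weighting both groups equally (chosen after values were seen), pseudocounts, filters, medians, scalings, borders, matchings and leaving out Short cells. The calculations were tested on simulated data. Work was done in Python 3.11.15 (matplotlib 3.10.9 for plots, pandas 2.3.3, scipy 1.17.1 for matching and intervals, numpy 2.4.6).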

Additional observations from a re-analysis of the deposited data

How the results depend on the processing

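Across 15 other settings for all gene-poor cells, 7 for matched cells and the leaving out of each Short cell, the median Long minus Short difference stayed above 0. It was lowest without a filter on low genes, at 0.16, where many genes are near 0 in both groups, and in matched cells lowest under median ratio scaling, at 0.30. With each Short cell left out in turn it ran from 0.87 to 1.08, and from 0.70 to 0.83 in matched cells. Numbers of genes past a difference of 1 moved more. With a pseudocount of 10, 1373 genes were higher in Long and 162 in Short cells (1315 and 219 in matched cells), and at a mean of at least 50 TPM 1369 and 72. Genes higher in Short cells numbered 1016 without a filter, 878 under median ratio scaling (1065 in matched cells), 123 without a border, 891 without cells under 4000 detected genes, 660 in a linear model with detected genes as covariate and 906 with pairs within 300 detected genes. With each Short cell left out, 2841 to 3259 genes were higher in Long and 344 to 530 in Short cells. In matched cells these were 2498 to 2777 and 520 to 666. For other values, the cause of each move was not tested. Of 4876 values of named genes under other settings, 131 moved by more than an SD and 66, of 14 genes, changed sign, most from a difference under 1. Those that changed sign from a difference of 1 or more were 2, both in matched cells, with ACD at -0.72 with pairs within 300 genes and MYC at -0.14 when matched on genes above 10 TPM. The median of the nuclear and small non-coding RNA list turned to -0.83 under that matching.

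No paired analysis was possible because the numbers in the labels only name cells and no result comes from a test. TPM carries no read depth, the 4 sparsest Short cells have no Long cell of like gene number, and with 12 Short cells from unnamed cultures the differences describe these cells only.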
